A study of Mus musculus with 10 samples.

Results

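The nucleic acid deaminases of the APOBEC and ADAR families were examined in 10 subcutaneous (s.c.) tumors as a set of 7 genes, chosen by symbol and found through their Ensembl identifiers among the 37417 genes of the count table. The 3 APOBEC genes (Apobec1, Apobec2 and Apobec3) belong to the cytidine deaminase family, and the 4 others (Adar, Adarb1, Adat1 and Adat2) to the adenosine deaminases that act on RNA or tRNA. All 7 were present and all 7 passed the filter on low counts, so none was lost before testing. The tumors grew from Panc02 cells, a mouse pancreatic ductal adenocarcinoma line, in 12-week-old wild type C57BL/6J mice and were collected on day 16 after injection. In 5 tumors the injected cells carried a guide RNA against Cda (sgCda), the gene for cytidine deaminase, and in the other 5 a nontargeting guide (sgNT). Both lines also carried a doxycycline-inducible Cas9 nuclease, and the labels name no drug treatment of the mice.

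The model has limits that bear on every value. The edited cells are the injected cancer cells only, while total RNA came from whole tumor tissue, so each level is an average over cancer and host cells, and fewer cells of one type cannot be told apart from less RNA per cell. Among the epithelial markers, the keratin genes Krt8 and Krt18 were high (353 to 645 and 157 to 325 CPM, counts relative to the library size scaled for composition, over the 10 tumors), whereas Epcam, an epithelial adhesion molecule, stood at 0.911 to 3.43 CPM and Krt7 at 0.190 to 2.42 CPM. Libraries held 28051907 to 39484964 assigned counts. The shallowest was sgCda tumor 4, which also had the highest share of reads outside annotated genes (18.4%, against 10.3% to 14.9% in the other tumors).

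Deaminases remove an amino group from a base: cytidine becomes uridine (or deoxycytidine deoxyuridine), and adenosine becomes inosine, which is read as guanosine. Unlike CDA, which acts on free nucleosides, these enzymes work on bases within RNA or DNA. APOBEC1 edits the apolipoprotein B messenger, mouse APOBEC3 restricts retroviruses, and APOBEC2 is found mainly in striated muscle with no agreed substrate. ADAR (ADAR1) and ADARB1 (ADAR2) edit double-stranded RNA, ADAR1 thereby keeps self RNA from triggering the sensor MDA5 (encoded by Ifih1) and has a longer form driven by interferon, and ADAT1 and ADAT2 modify transfer RNA, ADAT2 as the catalytic partner of ADAT3.

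On the mouse build GRCm38 (mm10), the APOBEC genes lie apart, Apobec1 at chr6:122577792-122602444 (minus strand), Apobec2 at chr17:48419231-48432930 (minus) and Apobec3 at chr15:79891659-79915906 (plus). Of the adenosine deaminase genes, Adar lies at chr3:89715022-89753446 (plus), Adarb1 at chr10:77290726-77418270 (minus), Adat1 at chr8:111966908-111992302 (minus) and Adat2 at chr10:13552894-13563376 (plus). Part of the exonic sequence is shared with genes on the opposite strand: 16.8% for Adar, with Chrnb2, and 17.0% for Adat2, with Pex3. Apobec3 shares 7.15% with D730005E14Rik on its own strand. Reads in that stretch of Apobec3 could be left out as ambiguous under any strand setting. The strand setting used for counting was not stated, so reads in the opposite-strand stretches could be left out too. Levels of Apobec3, Adar and Adat2 are to that extent uncertain.

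The promoters of 3 members are shown because their genes were the ones whose levels ran beside an interferon, a stromal or a muscle gene list (see the values for each gene). They are RefSeq windows on GRCm38.p6, reading 5′ to 3′ along the gene from 250 bases before the start to 50 bases after it. Capitals mark, in Adar and Apobec3, GAANNGAA, a core of interferon response elements, on either strand, or its longer form with a further A after each GAA, and in Apobec2 the E-box CAGCTG, a sequence bound by muscle regulators such as MYOD. The motifs were chosen after the levels were seen.

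Adar, the RefSeq start farthest downstream, chr3:89730468-89730767 (+): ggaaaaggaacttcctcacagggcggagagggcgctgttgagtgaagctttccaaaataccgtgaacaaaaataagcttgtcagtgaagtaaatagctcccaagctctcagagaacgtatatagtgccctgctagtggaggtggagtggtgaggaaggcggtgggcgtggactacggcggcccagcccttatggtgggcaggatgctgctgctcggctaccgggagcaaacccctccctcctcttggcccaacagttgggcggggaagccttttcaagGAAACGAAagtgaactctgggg
Apobec3, first RefSeq start, chr15:79892158-79892457 (+): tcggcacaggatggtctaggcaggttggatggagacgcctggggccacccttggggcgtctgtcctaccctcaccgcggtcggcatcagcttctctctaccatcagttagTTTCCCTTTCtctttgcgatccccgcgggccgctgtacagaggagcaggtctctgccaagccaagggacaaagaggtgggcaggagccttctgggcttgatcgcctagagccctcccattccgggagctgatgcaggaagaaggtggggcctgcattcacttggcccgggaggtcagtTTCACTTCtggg
Apobec2, chr17:48432679-48432978 (-): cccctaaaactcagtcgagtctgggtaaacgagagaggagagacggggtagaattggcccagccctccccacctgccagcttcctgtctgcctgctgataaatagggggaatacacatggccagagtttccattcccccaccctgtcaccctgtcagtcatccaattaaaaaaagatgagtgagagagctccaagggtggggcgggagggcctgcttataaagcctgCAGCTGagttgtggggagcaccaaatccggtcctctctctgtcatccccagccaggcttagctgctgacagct

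In the Adar window the match lies at positions 29 to 36 after the start. Neither of the other 2 RefSeq starts of Adar has a match to either form. In Apobec3 the longer form lies on the opposite strand at -140 to -131 and the shorter at 39 to 46, and the window of its other RefSeq start (chr15:79894773-79895072) has neither. GAANNGAA is common, with a match in 20.1% of all 32851 RefSeq promoter windows of this length, and the longer form in 3.44%. The E-box of Apobec2 lies at -23 to -18, and CAGCTG is held by 16.3% of all windows, that of Apobec1 (at -47 to -42) among them. Apobec2 also has a GAANNGAA match on the opposite strand, at -123 to -116. The matches are letters in a window and do not show that a factor binds there.

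To place the members by level, CPM was divided by gene length, since raw CPM favours long genes. Per kilobase of all exonic sequence, Apobec1 ranked highest (mean 39.4 CPM per kilobase, range 37.2 to 45.6, 10 tumors), before Apobec3 (25.2, 21.4 to 28.1), Adar (13.0, 11.6 to 15.1) and Adat2 (4.95, 3.48 to 5.75). The lowest 3 were Apobec2 (1.72, 0.0396 to 9.16), Adarb1 (1.19, 0.998 to 1.39) and Adat1 (0.935, 0.686 to 1.48). Apobec1 stood above Apobec3, Apobec3 above Adar and Adar above Adat2 in 10 of 10 tumors. Adarb1 stood above Adat1 in 9 of 10 tumors, and Apobec2 above Adarb1 in only 4 of 10, so the bottom of the order is not fixed. The place at the top rests on the length used: per kilobase of the longest coding transcript, Apobec3 (86.3 CPM per kilobase) came before Apobec1 (47.0), and Adarb1 (2.01) before Apobec2 (1.94).

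To check the targeted gene, Cda was read in every tumor. Cda stood at 10.1, 11.7, 12.8, 14.7 and 11.1 CPM in sgNT tumors 1 to 5 and at 8.34, 8.43, 12.1, 7.47 and 12.5 CPM in sgCda tumors 1 to 5. In 3 sgCda tumors it lay below every sgNT tumor and in 2 within their range. The log2 fold change of sgCda over sgNT was -0.30 (SE 0.17; unadjusted p = 0.0963, adjusted p = 1.00, edgeR quasi-likelihood test), so the groups were not separated by the Cda transcript of whole tumors. The authors found Cda RNA in endothelial cells and some in fibroblasts of their mouse tumors, so host cells may add to these counts. The share of host cells was not tested. The authors checked silencing in the cell lines by RT-qPCR and western blotting. Their primers for Cda probed the region that the guides target, whereas the counts here cover the whole gene. The efficiency of targeting in the cancer cells was not tested by these counts.

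To ask whether targeting Cda in the cancer cells was accompanied by a change in deaminases that act on nucleic acid, sgCda and sgNT tumors were compared over all 15299 genes that passed the filter. None of the 7 members passed an adjusted p of 0.05 (background: 0% of all genes tested), none had an unadjusted p under 0.05 (background 2.5%), and none had groups without overlap (background 0.601%). DESeq2 and limma-voom also gave 0 members and 0 genes at an adjusted p of 0.05, and 0 members at an unadjusted p of 0.05. By sign, 4 members were higher and 3 lower in sgCda tumors, with a median log2 fold change of 0.012, against 0.0078 over all genes tested. The 95% confidence intervals of Apobec1, Apobec3 and Adar all lay within 0.29 of no change on the log2 scale, whereas that of Apobec2 ran from -0.80 to 4.40.

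Apobec1, the catalytic subunit of the apolipoprotein B editing complex, varied least. It stood at 102, 105, 108, 108 and 106 CPM in sgNT tumors 1 to 5 and at 103, 106, 100.4, 123 and 101 CPM in sgCda tumors 1 to 5. One tumor, sgCda tumor 4, lay above all others, and the 9 others spanned 100.4 to 108 CPM. Between groups the log2 fold change was 0.012 (SE 0.064; 95% confidence interval -0.13 to 0.15; unadjusted p = 0.855, edgeR), which allows a change of -8.58% to 11.2%. Without sgCda tumor 4 it was -0.043. Its coefficient of variation over the 10 tumors, 6.13%, lay at the 8.56th percentile of all genes tested (median 14.1%).

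The known partners of APOBEC1 were measured beside it. Rbm47, an RNA-binding cofactor of C-to-U editing, was present at 14.1 to 25.5 CPM, while the cofactor A1cf had 0 or 1 count per library and the substrate Apob 2 to 19 counts, too few to test A1cf or Apob. A library's floor was taken as 3 counts.

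Apobec3, the restriction factor, had the highest CPM of the 7. It stood at 229.6, 235, 266, 249.7 and 229 CPM in sgNT tumors 1 to 5 and at 202, 237, 259.8, 260.45 and 219 CPM in sgCda tumors 1 to 5. The groups overlapped almost fully, the lowest tumor being sgCda tumor 1 and the highest sgNT tumor 3. Their log2 fold change was -0.04 (SE 0.082; 95% confidence interval -0.22 to 0.14; unadjusted p = 0.664, edgeR).

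Adar, which encodes ADAR1, was lower in each of the 5 sgCda tumors than the mean of the sgNT tumors, without passing the test. Its levels in sgNT tumors 1, 2 and 5 also lay below that mean. It stood at 108, 105, 122, 119 and 95.02 CPM in sgNT tumors 1 to 5 and at 102, 101, 98.9, 107 and 94.1 CPM in sgCda tumors 1 to 5. The sgCda tumors were close together, and the sgNT group was spread by tumors 3 and 4 at the top and tumor 5 at the bottom. Averaged over 5 tumors, Adar reached 109.8 ± 11.0 CPM with sgNT and 100.6 ± 4.73 CPM with sgCda (mean ± SD). The log2 fold change was -0.13 (SE 0.074; 95% confidence interval -0.29 to 0.04; unadjusted p = 0.119, edgeR). Leaving out sgNT tumors 3 and 4 together, an alternative chosen after seeing the data, left a log2 fold change of -0.03 (unadjusted p = 0.703, edgeR), and leaving out sgNT tumor 5 gave -0.17 (unadjusted p = 0.0302, edgeR).

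Adarb1, which encodes the site-selective editor ADAR2, was an order of magnitude below Adar per kilobase. It stood at 14.5, 15.7, 11.3, 12.3 and 12.7 CPM in sgNT tumors 1 to 5 and at 14.03, 12.4, 13.4, 14.7 and 12.8 CPM in sgCda tumors 1 to 5. All sgCda tumors lay within the sgNT range. Its log2 fold change was 0.019 (SE 0.10; 95% confidence interval -0.21 to 0.25; unadjusted p = 0.856, edgeR).

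The transfer RNA deaminases had the lowest counts after Apobec2, 110 to 184 per library for Adat1 and 144 to 310 for Adat2. Adat1, which deaminates the adenosine beside the anticodon of alanine transfer RNA, stood at 3.91, 3.57, 3.41, 4.65 and 3.57 CPM in sgNT tumors 1 to 5 and at 3.73, 3.02, 4.42, 6.52 and 4.34 CPM in sgCda tumors 1 to 5. Its log2 fold change was 0.20 (SE 0.20; 95% confidence interval -0.24 to 0.65; unadjusted p = 0.335, edgeR). Adat2, which makes the wobble inosine, stood at 7.65, 6.79, 8.43, 7.66 and 7.79 CPM in sgNT tumors 1 to 5 and at 7.26, 7.78, 7.22, 5.10 and 6.93 CPM in sgCda tumors 1 to 5. Its log2 fold change was -0.16 (SE 0.13; 95% confidence interval -0.44 to 0.12; unadjusted p = 0.238, edgeR). Both differences leaned on one library: sgCda tumor 4 was the highest of 10 for Adat1 and the lowest of 10 for Adat2, and without it the log2 fold changes were 0.023 and -0.07. That tumor was also the highest for Apobec1 and had the shallowest library, with the most reads outside genes. The part of library quality in these values was not tested.

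Apobec2 differed from the other members in kind. It stood at 0.101, 0.0632, 1.77, 3.80 and 0.427 CPM in sgNT tumors 1 to 5 and at 4.55, 1.58, 14.6, 0.425 and 0.190 CPM in sgCda tumors 1 to 5. High and low tumors occurred in both groups, and 523 counts belonged to sgCda tumor 3 and 2 to sgNT tumor 2. The log2 fold change was 1.80 (SE 1.18; unadjusted p = 0.157, edgeR), and without sgCda tumor 3 it was 0.46. Its coefficient of variation, 162%, lay at the 99.8th percentile of all genes tested.

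**Figure D1:**
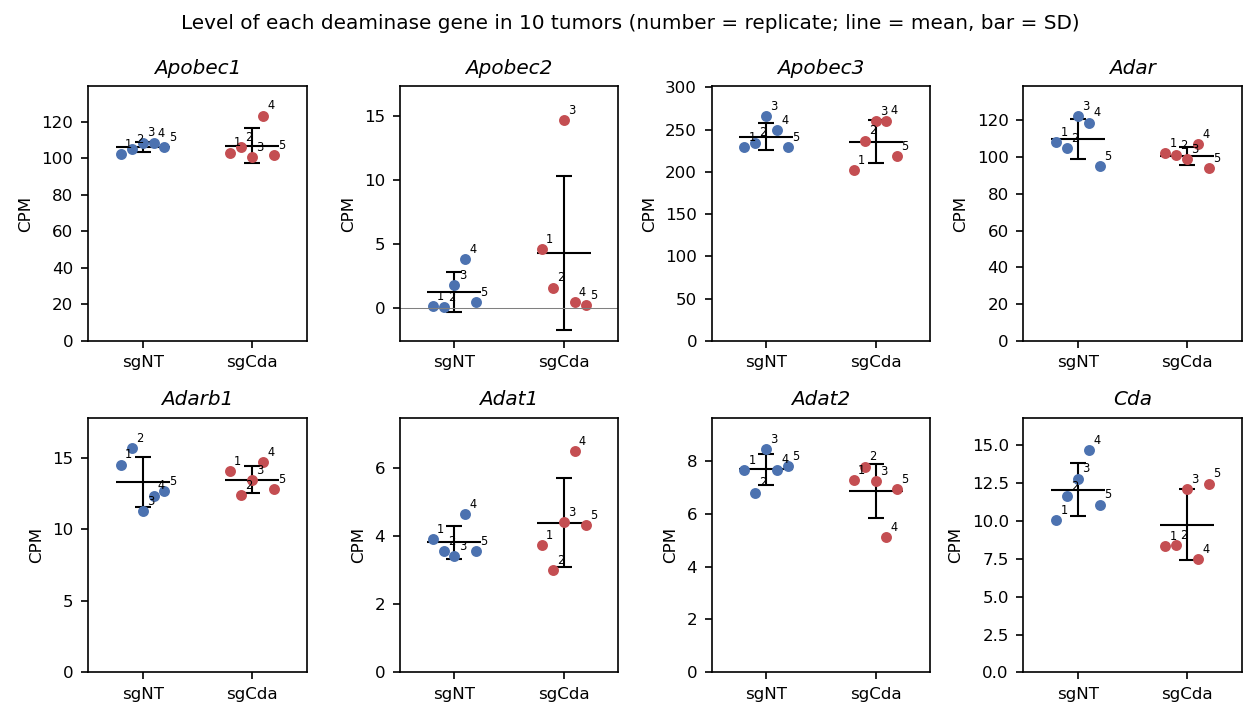
Level of each deaminase gene and of Cda in CPM (vertical axis, linear, from 0 except for Apobec2) in 5 sgNT (blue) and 5 sgCda (red) tumors. Each point is a tumor with its replicate number, the horizontal line is the group mean and the bar its SD, and the groups overlap in every panel, with sgCda tumor 4 apart for Apobec1, Adat1 and Adat2 and sgCda tumor 3 for Apobec2.

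**Figure D2:**
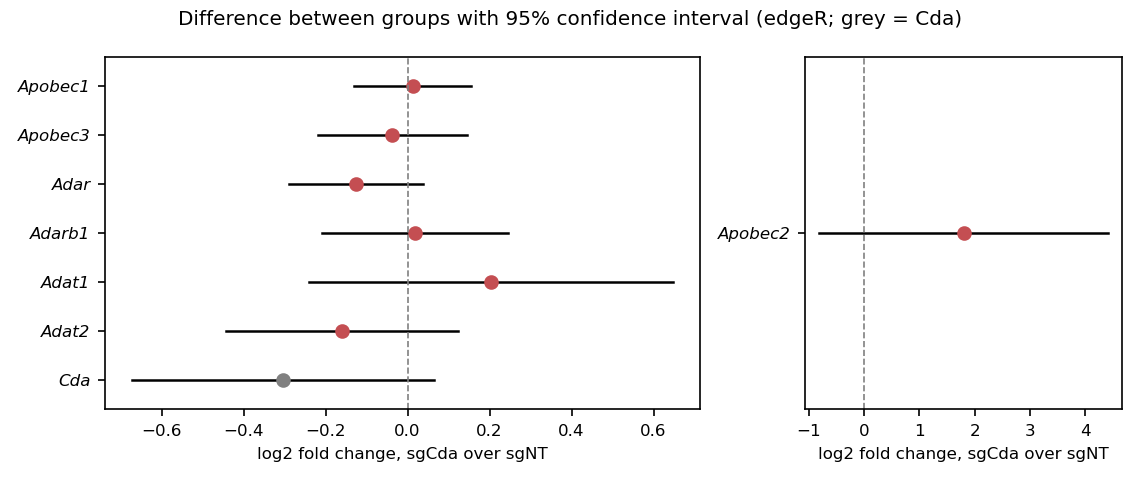
The log2 fold change of sgCda over sgNT tumors (horizontal axis) with its 95% confidence interval from edgeR for each member (red) and Cda (grey), with Apobec2 on a wider axis of its own. Every interval spans 0, from -0.13 to 0.15 for Apobec1 to -0.80 to 4.40 for Apobec2.

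To describe what else varied with the members, their log2 CPM was set beside the mean log2 CPM of 5 gene lists (macrophage, T cell, skeletal muscle, fibroblast and interferon-stimulated genes) over the 10 tumors, which gave 35 relations. By the skeletal muscle list the tumors fell into separate sets: 5 tumors (sgNT tumors 3 and 4 and sgCda tumors 1, 2 and 3) had 313 to 2166 summed CPM of 10 muscle genes, and the other 5 had 5.79 to 36.0. In the first set Apobec2 stood at 1.58 to 14.6 CPM and in the second at 0.0632 to 0.427, with no overlap. The relation of Apobec2 to the muscle list was among the 35 tested (Pearson's r 0.97, permutation p = 5e-05, adjusted p = 0.00175). The tumors formed separate sets of 5, so this r carries the split along with any relation inside the sets. In the first set Apobec2 stood at 1.58, 1.77, 3.80, 4.55 and 14.6 CPM where the list level was 4.64, 5.02, 5.415, 5.65 and 7.37. In the second it stood at 0.190, 0.0632, 0.101, 0.427 and 0.425 CPM where the list level was -1.56, -1.44, 0.0717, 0.702 and 1.59. Within sgNT r was 0.97, within sgCda 0.96 and without the 2 tumors farthest from the list median 0.97, each with tumors of both sets. No muscle gene was at 0 counts throughout: Acta1, skeletal actin, ranged from 5 to 20862 counts and Ckm, muscle creatine kinase, from 3 to 7011, while the myosin genes Myh4 and Myh2 reached 0 counts in their lowest libraries. Ampd1, the muscle form of AMP deaminase, was split the same way (3.21 to 23.6 against 0 to 0.354 CPM). With the muscle list level as a covariate, the log2 fold change of Apobec2 was 0.36 (unadjusted p = 0.355, edgeR). The muscle list itself was not separated by group (difference 1.59 on the log2 scale, exact permutation p = 0.437, two-sided, n = 5 each; p = 0.829 adjusted over 11 lists).

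Apobec3 ran against the fibroblast list. Over the 10 tumors Pearson's r was -0.83 (permutation p = 0.00299, adjusted p = 0.0445 over the 35 relations) and Spearman's rho -0.92 (permutation p = 0.00054, adjusted p = 0.00945). Without the 2 tumors farthest from the median of the list, sgNT tumor 5 and sgCda tumor 4, r was -0.90. The relation is close to the threshold: with the 7 muscle relations left out of the family, a choice made after seeing the data, the adjusted p for r was 0.0533. The summed CPM of the 8 fibroblast genes, collagens among them, ran from 3392 to 7374 in sgNT and from 4066 to 6100 in sgCda tumors. The genes of this list did not all move together. In sgCda tumor 4 the collagen gene Col1a2 was lowest of the 10 tumors (23.0 CPM) while Dcn was highest (2422 CPM). In sgCda tumor 3 Dcn was lowest (614 CPM) while Col1a2 stood at 1048.5 CPM. Which of the listed genes carry the relation to Apobec3 was not tested.

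Adar ran with the interferon-stimulated list, but on the strength of a pair of tumors. Pearson's r was 0.85 (permutation p = 0.00381, adjusted p = 0.0445, or 0.0533 without the muscle relations) and Spearman's rho 0.71 (permutation p = 0.0278, adjusted p = 0.243). Without sgNT tumors 3 and 4, the 2 farthest from the median of the list, r was 0.42, so the relation rests on those tumors. They held 3080.0 and 3112 summed CPM of the 14 interferon-stimulated genes, against 1906 to 2505 in the 8 others, and Adar at 119 and 122 CPM, against 94.1 to 108. Apobec3 had no such relation that passed (r 0.54, permutation p = 0.115, adjusted p = 0.447; rho 0.47, permutation p = 0.180, adjusted p = 0.555). Outside the muscle list, only these relations of Apobec3 and Adar passed for Pearson's r in the family of 35.

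**Figure D3:**
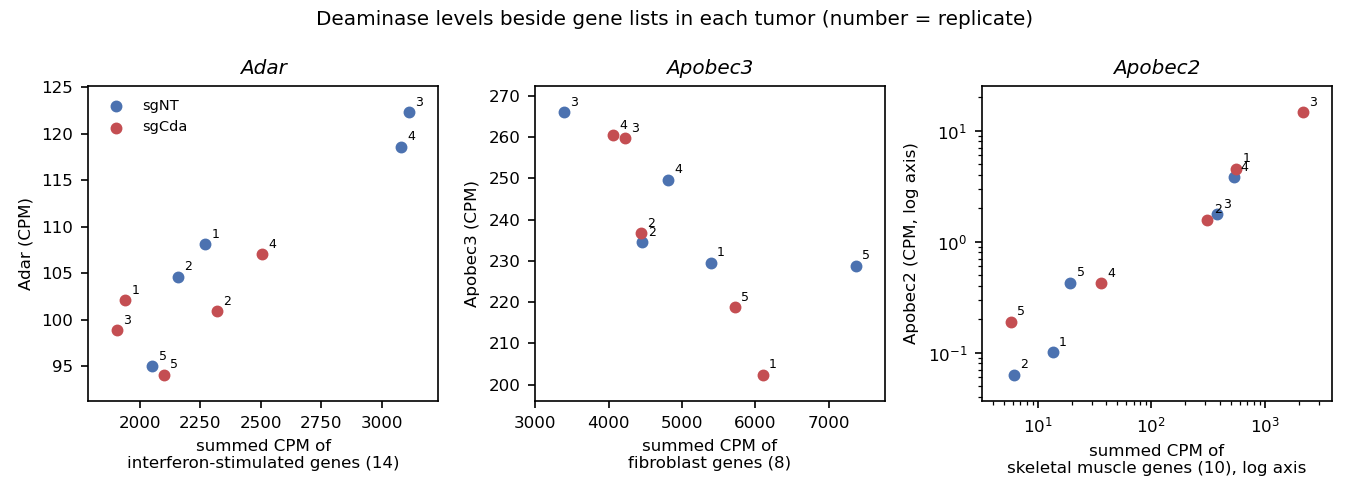
Level of Adar, Apobec3 and Apobec2 in CPM (vertical axes) against the summed CPM of interferon-stimulated, fibroblast and skeletal muscle genes (horizontal axes, logarithmic on both axes for Apobec2) in each sgNT (blue) and sgCda (red) tumor, numbered by replicate. sgNT tumors 3 and 4 stand apart for Adar, the 4 tumors with the most fibroblast CPM hold the 4 lowest Apobec3 levels, and the 5 tumors with the highest summed muscle CPM hold the 5 highest Apobec2 levels.

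The genes whose log2 CPM followed each member most closely over the 10 tumors were taken from 12247 or 12248 genes with a mean log2 CPM of at least 1, as a description with no test. For Adar they were Parp14 (r 0.97) and Parp11 (0.93), both mono-ADP-ribosyltransferases, and Slfn8 (0.92), a Schlafen family gene. For Apobec3 they were Gbp4 (0.92), a guanylate-binding GTPase, Samhd1 (0.91), a deoxynucleotide triphosphohydrolase, and Atp13a1 (0.90). For Apobec2 they were Mylpf, Atp2a1 and Tnni2 (each 0.98), all of fast muscle fibres and all in the muscle list above, and these values carry the same split of the tumors into 2 sets. Apobec1 was closest to Mndal (0.97), Cnot4 (0.95) and the mitochondrial gene mt-Nd5 (0.94), Adarb1 to Cul5 (0.94), Dop1a (0.94) and Rpap1 (0.92), Adat1 to Mrgbp (0.98), Cdk8 (0.96) and Csnk1e (0.96), and Adat2 to Szrd1, Rpe (both 0.97) and Mapkapk2 (0.97). The closest of that many genes over 10 tumors have a high r by selection. Apobec1, Adat1 and Adat2 each had their extreme level in sgCda tumor 4. How far their values of r rest on that tumor was not tested.

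To set the members beside their pathways, 7 lists of related genes were read in the same comparison. Of 73 genes listed, 65 were tested, and 0 passed an adjusted p of 0.05 (background 0%). At an unadjusted p of 0.05, 1 was higher and 3 were lower, against 2.5% of all genes.

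Among other nucleic acid deaminases, only Adarb2, a brain-enriched ADAR paralog without known activity, was tested (2.16 to 5.85 CPM, log2 fold change 0.18, unadjusted p = 0.520, edgeR). Apobec4 had 0 to 5 counts per library. Adad1 and Adad2 had 0 counts in every tumor, and Adat3 was not analysed here. Of 11 cofactors and other regulators of editing 10 were tested, 5 of each sign, with a median log2 fold change of -0.01. The list was not split by whether a gene aids or limits editing, so its median gives no direction for editing. Celf2, an RNA-binding protein, had the smallest p (151, 146, 158, 134 and 127 CPM in sgNT tumors 1 to 5 and 163, 168, 179, 182 and 141 in sgCda tumors 1 to 5). It was above the sgNT mean in 4 of 5 sgCda tumors (log2 fold change 0.22, SE 0.085, unadjusted p = 0.0253, adjusted p = 1.00, edgeR). Next came Khsrp, a splicing regulator, at -0.07 (unadjusted p = 0.2695, edgeR).

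The 9 deaminases of free nucleosides, nucleotides and bases had 6 positive and 3 negative log2 fold changes (median 0.05), from -0.30 for Cda to 1.83 for Ampd1, and none passed either threshold. The 8 genes that excise and repair uracil in DNA had 4 of each sign (median -0.0037). Among them Lig3, a DNA ligase, was below the sgNT mean in 5 of 5 sgCda tumors (37.5 against 33.5 CPM, log2 fold change -0.16, SE 0.077, unadjusted p = 0.0562, edgeR), and Polb was at 0.056 (unadjusted p = 0.387, edgeR). The known targets of editing, 10 of 12 tested, had a median log2 fold change of -0.02, with Igfbp7 lowest at -0.32 (unadjusted p = 0.172, edgeR) and Blcap highest at 0.11 (unadjusted p = 0.177, edgeR). These are transcript levels, and gene counts carry no record of edited bases.

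The double-stranded RNA sensors and the interferon-stimulated genes were the lists with the lowest medians. Of 13 sensing genes 12 had negative log2 fold changes and 1 positive (median -0.15), and of 14 interferon-stimulated genes all 14 were negative (median -0.30), against 7205 negative of 15299 genes tested. Only Ifih1 in the first list and Usp18 and Ifi44 in the second had an unadjusted p under 0.05, each at an adjusted p of 1.00. The log2 fold changes were -0.48 for Usp18 (unadjusted p = 0.0353, edgeR), -0.47 for Ifi44 (unadjusted p = 0.0425) and -0.45 for Oas3 of the sensing list (unadjusted p = 0.0704). Ifih1, the sensor restrained by ADAR1, stood at 118, 119, 132, 137 and 108 CPM in sgNT tumors 1 to 5 and at 108, 110.0, 82.4, 112 and 110.2 in sgCda tumors 1 to 5. Its log2 fold change was -0.23 (SE 0.096; unadjusted p = 0.0344, edgeR). It was below the sgNT mean in 5 of 5 sgCda tumors and also in sgNT tumors 1, 2 and 5.

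These differences moved with the same sgNT tumors 3 and 4 that were highest for Adar. Usp18, a negative regulator of interferon signalling, stood at 57.8 and 62.8 CPM in those 2 and at 27.4 to 39.1 in the 8 others, and Oas3, which makes the second messenger that activates RNase L, at 68.0 and 69.1 against 28.9 to 43.4. Without both tumors, an omission chosen after seeing the data, the medians were 0.017 for the sensing list and 0.020 for the interferon-stimulated list. The log2 fold changes of Usp18 and Ifih1 were then -0.09 and -0.14. As these were the sgNT tumors with the highest levels, leaving them out raises such differences by selection. The interferon-stimulated list as a whole was not separated by group (difference -0.28 on the log2 scale, exact permutation p = 0.238, two-sided, n = 5 each; p = 0.829 adjusted over 11 lists). None of the other 9 cell type lists differed either (adjusted p from 0.829 to 0.944, exact permutation tests).

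**Figure D4:**
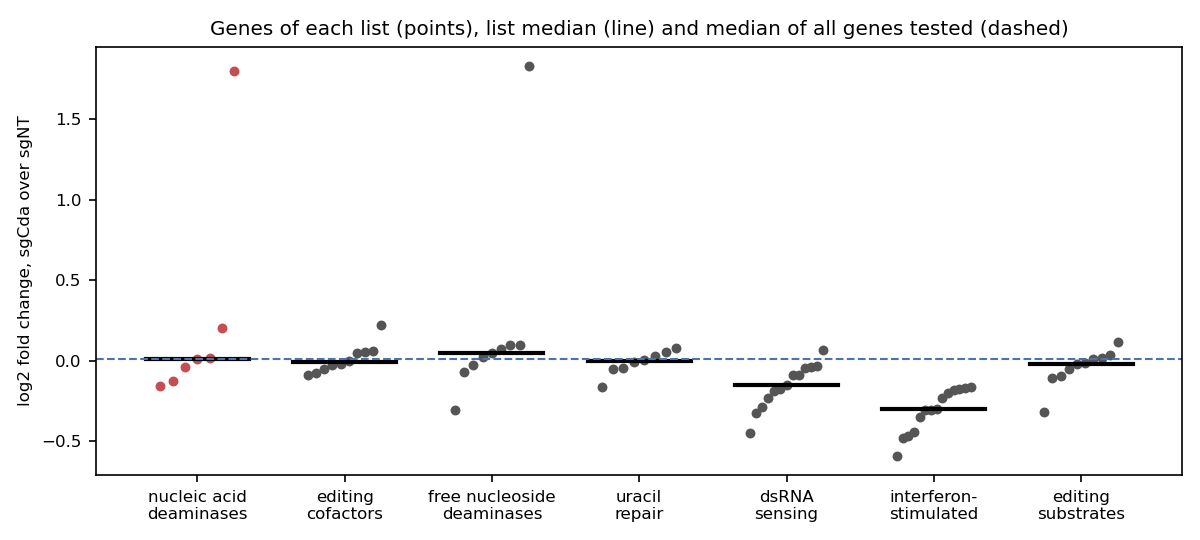
The log2 fold change of sgCda over sgNT (vertical axis) for each tested gene (points) of the 7 deaminases (red) and 6 related lists (grey), with list medians (black lines) and the median of all genes tested (dashed, 0.0078). Apobec2 and Ampd1 stand apart at 1.80 and 1.83, and all 14 interferon-stimulated genes lie below 0.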

How the data were processed

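RNA-seq was read from 10 whole tumors, 5 per group, grouped by sample title. Stranded mRNA libraries were aligned to mm10 and counted with HTSeq by the authors, and the submitters' processing notes name FastQC 0.11.5, Bowtie2 and HTSeq 07.2. The authors deposited whole-number gene counts without normalization, which were used as deposited. HTSeq drops reads of several places or genes. The 5 HTSeq summary lines (reads outside genes were 10.3% to 18.4%) were left out. The members, lists, motifs and tests were chosen with earlier results of these data known.

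Genes were filtered with filterByExpr (minimum count 10, total 15), scaled with TMM factors and tested with the quasi-likelihood test of edgeR 4.0.16 (R 4.3.3), all 10 tumors and no covariate, with Benjamini-Hochberg adjustment over 15299 genes. The labels do not say that replicates came from separate mice. Each p-value judges a difference or relation against the variation between these tumors. CPM are relative to TMM-scaled totals. List levels are mean log2 CPM (prior count 2) of tested genes and were compared over all 252 assignments of tumors (smallest p 0.00794). Correlations used 100000 permutations. Intervals are 95%. Lengths and positions came from GENCODE on GRCm38, promoters from RefSeq, which matched 6 of 7 members.

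Genes named were the members, Cda, for each related list the 2 of smallest p, and for each member the 3 of highest r (mean log2 CPM of at least 1). Others (Rbm47, A1cf, Apob, Apobec4, Adad1, Adad2, Krt8, Krt18, Krt7, Epcam, Acta1, Ckm, Myh4, Myh2) were named after their values were seen. Alternatives were DESeq2 1.42.0 size factors and Wald test, library totals, filters of 1 count in any tumor and 10 in every tumor, limma-voom (limma 3.58.1) with and without quality weights, a replicate block, a muscle covariate and omission of tumors. Counting sets the precision: 3 counts were taken as a library's floor.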

Additional observations from a re-analysis of the deposited data

Results flagged for a closer look

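Of 62 groups of 5 tumors checked for a tumor far from the other 4, 6 were picked out, where chance gives about 1 in 20, or 3.1. Among members, sgCda tumor 4 was far above the other sgCda tumors for Apobec1 (6.95 log2 CPM, the others 6.65 to 6.73) and far below them for Adat2 (2.37 log2 CPM, the others 2.81 to 2.97). It had the shallowest library. Among related genes, sgNT tumor 1 was highest for Polb, a base excision repair polymerase (4.91 log2 CPM, the others 4.71 to 4.72), and sgCda tumor 3 was lowest for Ifih1 (6.37 log2 CPM, the others 6.76 to 6.80). Among cell type lists, sgNT tumor 3 was highest for the T cell list (5.27 mean log2 CPM, the others 4.72 to 4.84) and sgCda tumor 3 lowest for the neutrophil list (2.05 mean log2 CPM, the others 3.34 to 3.72). The part of these tumors' cell makeup or library quality was not tested.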

How the results depend on the processing

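Under every alternative run, 0 genes over the transcriptome, 0 members and 0 related genes passed an adjusted p of 0.05. Genes with an unadjusted p under 0.05 numbered 382, but 830 with the filter of 1 count in any tumor, 719 with quality weights and 280 to 747 with 1 tumor left out (747 without sgCda tumor 3). Members with an unadjusted p under 0.05 numbered 0, and 0 to 1 with 1 tumor left out (Adar, without sgNT tumor 5). Without sgNT tumors 3 and 4 there was 1, Apobec2 (log2 fold change 4.35, unadjusted p = 0.0172, edgeR). Those were the only sgNT tumors with high summed muscle CPM (380 and 539, the other sgNT tumors 6.16 to 19.4). The sgCda group kept its 3 tumors with high muscle CPM, so this fit compared groups unlike in muscle content. The 4 related genes became 2 with limma-voom, 8 with quality weights, 2 without sgNT tumors 3 and 4, and 0 to 11 with 1 tumor left out. In the family of 35, 3 relations of members to lists passed, that of Apobec2 to the muscle list included. They became 1 with the median in place of the mean, 0 with the muscle relations left out and 1 to 3 with 1 tumor left out. The causes of these shifts were not tested.

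Log2 fold changes close to 0 turned sign. That of Apobec1 was -0.0085 with the filter of 1 count, -0.020 with quality weights, -0.035 without sgCda tumors 3 and 4, and -0.043 to 0.033 with 1 tumor left out. That of Adarb1 was -0.00090 with the filter of 1 count, -0.024 without sgCda tumors 3 and 4, -0.086 without sgNT tumors 3 and 4, and -0.035 to 0.083 with 1 left out. Apobec3 gave 0.028 without sgNT tumors 3 and 4 and -0.075 to 0.016 with 1 left out, and Adat1 gave -0.050 without sgCda tumors 3 and 4. Adarb2 gave -0.27 with quality weights, -0.34 without sgCda tumors 3 and 4, and -0.11 to 0.31 with 1 left out. Apobec2 ran from 0.46 to 2.85 with 1 tumor left out and could not be tested with the filter of 10 counts in every tumor.

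With the replicate number as a block, 325 genes had an unadjusted p under 0.05 and 0 an adjusted one, with log2 fold changes of -0.12 for Adar and 1.81 for Apobec2, and no call changed. Deviations of same-numbered tumors from their group means gave mixed correlations over genes (r -0.028, -0.024, 0.331, -0.427 and 0.343 for numbers 1 to 5), and the sgNT tumor matched best with its own number for numbers 3 and 5 only. As not every r was over 0.1, the numbers were not taken to pair the tumors. Counts of 2 to 523 limit Apobec2, and with 110 to 184 counts Adat1 could hide changes within its interval.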
